A study of Homo sapiens with 3 samples.

Results

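The nuclear genes of respiratory complexes I to IV were followed in RNA-Seq libraries of DLD1, an established colorectal cancer cell line. Genes were chosen by symbol alone, as the protein-coding NDUFA, NDUFB, NDUFC, NDUFS and NDUFV genes with NDUFAB1 for complex I, SDHA to SDHD for complex II, the UQCR genes with CYC1 for complex III, and 10 COX subunit genes for complex IV. This gave 61 genes of the 60504 in the deposited table, 38 of complex I, 4 of complex II, 9 of complex III and 10 of complex IV. There was 1 library of wild type DLD1 control cells, and there were 2 libraries of BEX2-/- DLD1 cells, named KO1 and KO2. BEX2 had been disrupted with CRISPR/Cas9 by a small deletion near the start of translation, and clones were screened by sequencing. The sources do not say whether KO1 and KO2 are separate clones or separate cultures of 1 clone. No drug or time course is named, and all 3 libraries carry the same run date and lane in their labels.

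The respiratory chain passes electrons from NADH and succinate to oxygen and pumps protons across the inner mitochondrial membrane. Complex I oxidises NADH, complex II oxidises succinate and belongs to the tricarboxylic acid cycle as well, complex III hands electrons from ubiquinol to cytochrome c, and complex IV reduces oxygen. Complexes I, III and IV are assembled from subunits of the nuclear and of the mitochondrial genome, whereas every subunit of complex II is nuclear. The subunits are needed in fixed ratios in the finished complexes, and colonocytes are known for a high rate of respiration.

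The libraries held 47458849 reads in the control library, 35594006 in KO1 and 47722368 in KO2, as worked out from the steps between low FPKM values. FPKM divides the fragments of a gene by the length of its exons and by the size of the library. BEX2 mRNA was listed at 0 in every library and gave no check of the labels. Of 7 epithelial markers all were above 1 FPKM in the control, with EPCAM at 265 FPKM, KRT8 at 538 FPKM and CDX2 at 33.3 FPKM. Of these VIL1, a microvillus protein, differed most, at 3.61 FPKM in the control, 13.2 in KO1 and 0.221 in KO2, and KRT19 was at 305, 442 and 494 FPKM. Of 6 markers of leukocytes, fibroblasts and endothelium, none reached 1 FPKM in any library, and PTPRC was listed at 0 in all 3. With a single control library no p-value across genes was computed, and an exact permutation test of 1 library against 2 cannot go below 0.333. Differences are therefore given as values per library, beside the share of all genes that moved as far.

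All 61 genes had a value above 0 in every library. Together they made up 1.04% of the FPKM sum in DLD1 control cells, 1.02% in KO1 and 0.933% in KO2. The median level in DLD1 control cells was 22.9 FPKM over complex I, 26.7 over complex II, 43.0 over complex III and 72.6 over complex IV. The order of the genes by level was alike between libraries, with a Spearman correlation of 0.994 between the control and either KO library over the 61 genes, which is a description across genes of unequal exon length.

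The highest gene was COX6B1 (ENSG00000126267, chromosome 19), a subunit of complex IV that faces the intermembrane space, at 226 FPKM in the control library, 189 in KO1 and 187 in KO2. In complex I the highest was NDUFS5 (ENSG00000168653, chromosome 1), an accessory subunit, at 184, 162 and 179 FPKM. In complex III it was UQCRH, the hinge protein, at 140, 128 and 122 FPKM. For each of these genes the control library was the highest of the 3. In complex II the highest was SDHB, the iron-sulphur subunit, at 53.0, 52.0 and 43.7 FPKM, and the lowest was SDHC, a membrane anchor, at 6.12, 6.76 and 6.11 FPKM. The lowest of complex IV was COX6C, at 28.5 FPKM in the control, 28.3 in KO1 and 25.3 in KO2. Within complex IV the levels in the control thus spanned 7.94-fold, whereas within complex I they spanned 440-fold. Over the 29 genes of complex I that share under 30% of their coding bases with exons of another gene, the span was 45.2-fold. Over such genes of complex IV it stayed at 7.94-fold.

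**Figure D1:**
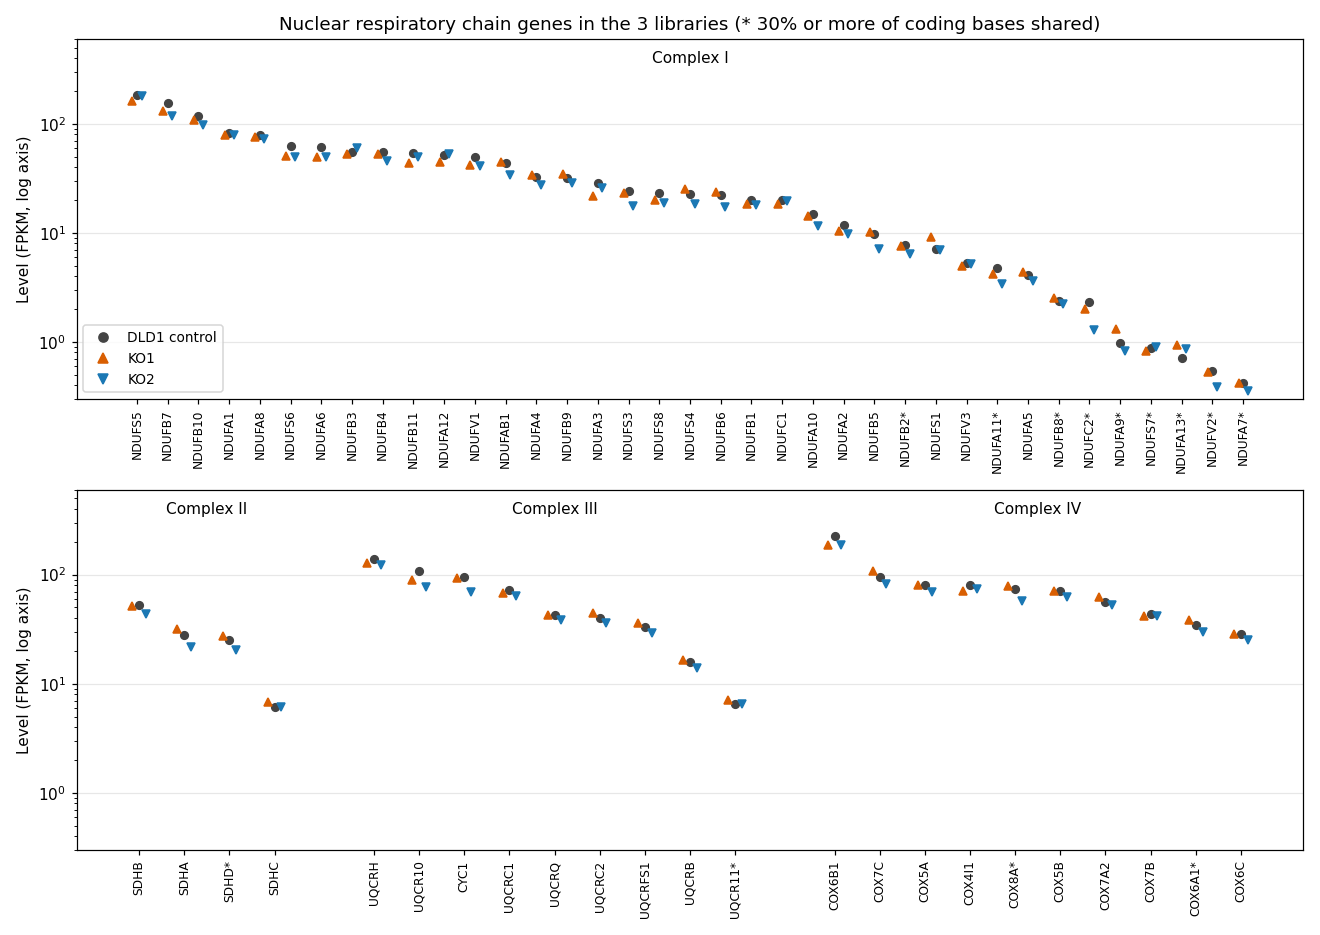
Level in FPKM on a log axis of each gene, 1 gene of complex I left out, with 1 point for each library (circle DLD1 control, upward triangle KO1, downward triangle KO2), ordered by the control level within each complex. Genes with an asterisk share at least 30% of their coding bases with exons of another gene, and 7 of them are the lowest of complex I. The libraries lie close together for each gene, while genes of complex I run from 0.418 to 184 FPKM in the control.

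The low end of complex I held core and accessory genes. NDUFV2, which carries an iron-sulphur cluster next to the NADH site, was at 0.536 FPKM in the control library, 0.529 in KO1 and 0.386 in KO2. NDUFS7, a subunit of the quinone site, was at 0.878, 0.824 and 0.898 FPKM. NDUFA7 was at 0.418, 0.418 and 0.356 FPKM, and NDUFA13, also known as GRIM-19, at 0.716, 0.944 and 0.859 FPKM. These 4 genes fell under a mean of 1 FPKM and were left out of the counts of called genes below. Their values rest on few reads, 69, 51 and 50 for NDUFV2 and 28, 21 and 24 for NDUFA7.

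Exons of other genes overlie these loci. In GENCODE release 29, 84.7% of the coding bases of NDUFV2, 78.3% of those of NDUFA7, 55.2% of those of NDUFA13 and 48.5% of those of NDUFS7 also lie in exons of another gene of the table, on either strand. Such sharing reached at least 30% for 13 of the 61 genes, of which 9 belong to complex I. The median level of the 13 in DLD1 control cells was 2.35 FPKM, against 43.9 FPKM for the other 48. The 7 lowest genes of all 61, which besides the 4 named include NDUFA9, NDUFC2 and NDUFB8, were all among the 13. The genes that overlie most of these loci had few or no reads of their own. The NDUFC2-KCTD14 readthrough gene over NDUFC2 was listed at 0 in all 3 libraries, as were AL133352.1 over NDUFB8 and AP005263.1 over NDUFV2, whereas AC011448.1 over NDUFA13 was at 1.45, 1.26 and 1.498 FPKM. NDUFB2 was at 7.69 FPKM in the control and shared 45.2% of its coding bases, in part with BRAF on the opposite strand. COX8A (55.1% shared, 74.1 FPKM in the control), COX6A1 (53.5%, 34.3 FPKM) and SDHD (47.7%, 25.3 FPKM) went against this order. Whether reads in shared bases were discarded in counting was not tested, and levels of these 13 genes are uncertain for that reason.

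**Figure D2:**
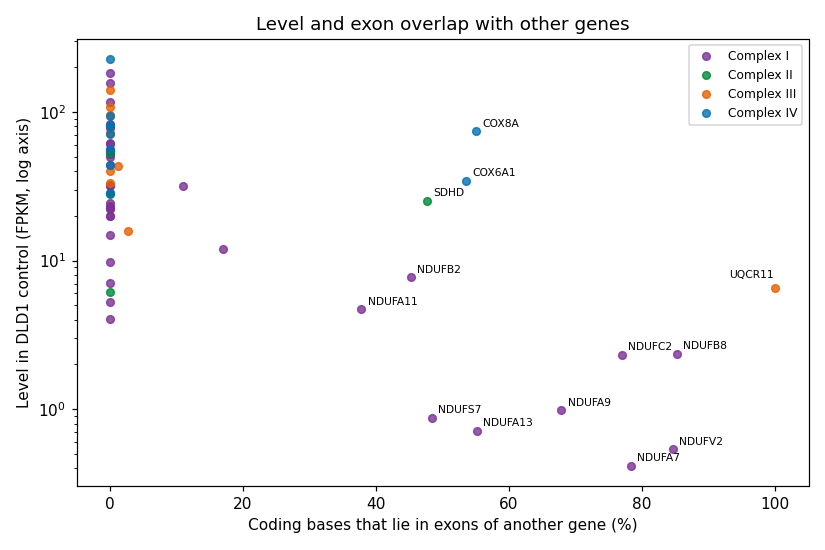
Level in DLD1 control cells in FPKM (log axis) against the percentage of coding bases that lie in exons of another gene, 1 point for each of the 61 genes, coloured by complex. The 7 lowest genes lie between 48.5% and 85.2% shared, while COX8A, COX6A1 and SDHD stand above 25 FPKM at 47.7% to 55.1%.

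Exon length moved with the level as well. Over the 48 genes that share under 30% of their coding bases, the Spearman correlation between the control level and the length of the merged exons was -0.703, a description across genes. The 2 genes with the longest merged exons were SDHC, with 14160 nt and 6.12 FPKM in the control, and NDUFS1, with 12268 nt and 7.07 FPKM. Merged exons include retained introns and alternative ends, so that FPKM of such genes can understate the level of the usual transcript. Ratios of 1 gene between libraries do not depend on this length.

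Each KO library was set against the control on the scale of log2(FPKM + 1), which understates changes of low genes. A mean of at least 1 FPKM was reached by 57 of the 61 genes and by 11675 genes in all. No gene of complexes I to IV was 2-fold higher or lower in both KO libraries, as 0.325% of all genes were, and none of the 57 reached 2-fold in either library. The largest difference was that of NDUFC2 in KO2, at -0.54. In KO2 the genes were lower as a group, with a median log2 ratio of -0.20 over the 57, against -0.01 over all genes. In KO1 the median was -0.03, against 0.04 over all genes.

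Of the 57 genes, 55 were below the control in KO2 (96.5%), where 51.6% of all genes were. Without the filter on low values this held for 57 of 61. At least 1.2-fold lower in KO2 were 23 of the 57 genes (40.4%), against 18.0% of all genes, and 0 were 1.2-fold higher, against 17.5%. The count of lower genes depended on the scaling, at 17 of 57 (29.8%, against 16.9% of all genes) after median-ratio scaling and 13 of 57 (22.8%, against 16.2% of the same 11675 genes) after TPM scaling. In KO1, 34 of 57 were below the control (59.6%), against 43.8% of all genes. There 5 genes were at least 1.2-fold lower and 1 was higher, against 12.5% and 16.8% of all genes. KO2 and KO1 are compared with the same control library, so these counts are not independent of each other.

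Abundant genes of every kind tended to be lower in the KO libraries. Over the 1955 genes with a mean of at least 20 FPKM the median log2 ratio was -0.07 in KO1 and -0.10 in KO2. Of these genes 63.1% were below the control in KO1, and of the 41 respiratory genes at that level 63.4% were, a like share. In KO2 66.6% of the abundant genes were below the control, against 95.1% of the 41 respiratory genes. At least 1.2-fold lower in KO2 were 25.0% of abundant genes and 43.9% of the respiratory genes, 18 of 41. The FPKM sum over the whole table was 0.958 of the control sum in KO1 and 0.952 in KO2. Shares of abundant genes after scaling are not given here.

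The KO libraries differed from each other. KO2 was below KO1 for 49 of the 57 genes, where 57.8% of all genes and 56.8% of genes of at least 20 FPKM were, and the median log2 ratio of KO2 to KO1 was -0.20, against -0.05 over all genes. At least 1.2-fold lower in KO2 than in KO1 were 20 genes and 0 were higher, against 23.1% and 16.1% of all genes. KO2 was the lowest of the 3 libraries for 49 of the 57 genes, where it was so for 41.0% of all genes. With the libraries scaled to their median ratio, KO2 stayed below the control for 54 of 57 genes, and with TPM scaling for 49 of 57. For KO1 the direction depended on the scaling, since 34 of 57 genes were below the control as deposited, 36 after median-ratio scaling and 25 after TPM scaling. The median log2 ratio over all genes moved too, to 0.10 in KO1 and 0.05 in KO2 after TPM scaling of the same 11675 genes. The share of all genes below the control after scaling is not given here. Among calls of at least 1.2-fold in KO1, lower genes made up 5 of 6 as deposited, 9 of 10 after median-ratio scaling and 1 of 3 after TPM scaling. Among calls between KO2 and KO1, lower genes made up 20 of 20 as deposited, against 58.9% over all genes. After median-ratio scaling they made up 15 of 17, against 49.0% over all genes. Over all genes, lower genes made up 42.6% of these calls in KO1 as deposited, 52.9% after median-ratio scaling and 29.4% after TPM scaling of the same 11675 genes. In KO2 they made up 50.8% as deposited and 37.8% after that TPM scaling, and in both KO libraries 45.2% and 23.7%. With a filter of 1 TPM, which 15841 genes passed, the share in both was 33.7%.

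**Figure D3:**
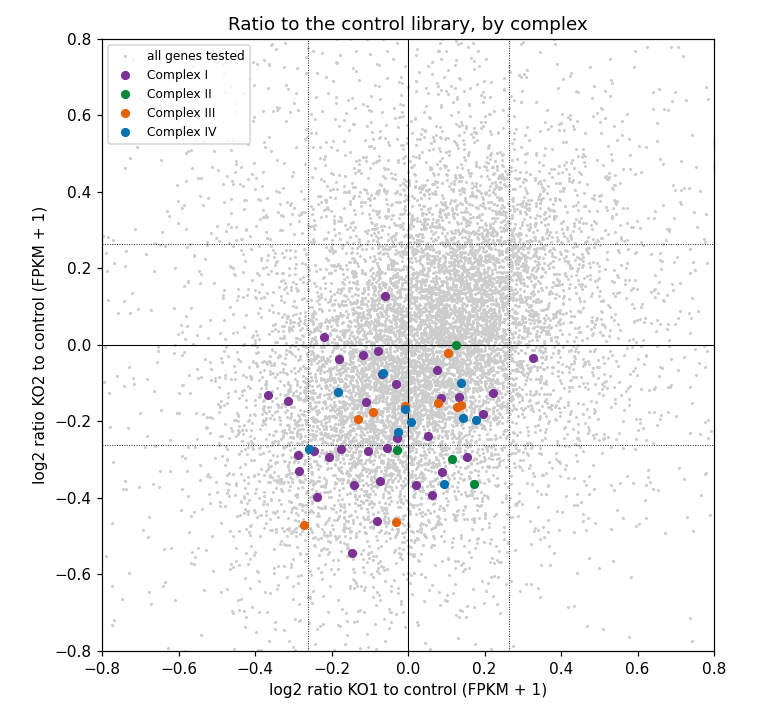
Log2 ratio of KO2 to control (vertical) against that of KO1 to control (horizontal) on the FPKM + 1 scale, with 57 respiratory genes coloured by complex over all genes tested in grey. Dotted lines mark 1.2-fold, the view ends at 0.8 in each direction and leaves out grey points beyond it, and 55 of the coloured points lie below the horizontal zero line.

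Counting error was small beside these differences for most genes. Between 21 and 18133 reads per library stood behind each of the 61 genes. The reads came out within 0.02 of a whole number for 58 of them, and those of NDUFB9, NDUFV1 and SDHD are approximate. The exact (Clopper-Pearson) 95% interval of the ratio of FPKM in KO2 to the control lay wholly below no change for 48 genes and wholly above for 1, NDUFB3. In KO1 it lay wholly below for 22 genes and wholly above for 15. These intervals compare single libraries and cover counting error only, not the spread between cultures. They were worked out for the 61 genes alone, so there is no share of all genes to set beside these counts.

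At least 1.2-fold lower in both KO libraries were 3 of the 57 genes (5.26%), against 4.06% of all genes and 7.01% of genes of at least 20 FPKM, where they made up 3 of 41 (7.32%). None was 1.2-fold higher in both, as 4.92% of all genes were. These shares are near those of all genes. UQCR10 (ENSG00000184076, chromosome 22), a small subunit of complex III, was at 108 FPKM in the control library, 89.3 in KO1 and 77.6 in KO2, and the mean of the KO libraries was 83.4 ± 8.26 FPKM (SD, n = 2). NDUFS6 (ENSG00000145494, chromosome 5), a zinc-binding subunit of complex I, was at 61.9, 50.6 and 49.1 FPKM, with a KO mean of 49.9 ± 1.10 FPKM (SD, n = 2). NDUFA6 (ENSG00000184983, chromosome 22), an accessory subunit of the complex I arm in the matrix, was at 60.9, 49.8 and 49.7 FPKM. For NDUFS6 and NDUFA6 the KO libraries lay together below the control. UQCR10 was lower in KO2 than in KO1, at a log2 ratio of -0.20. COX6B1 fell just short of this rule, with log2 ratios of -0.26 in KO1 and -0.27 in KO2, where 1.2-fold is 0.26. After TPM scaling 0 genes met the rule.

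Among the nuclear catalytic subunits of complex I, KO2 was the lowest library for all 5 that passed the filter. NDUFS1, the large iron-sulphur subunit, was at 7.07 FPKM in the control library, 9.12 in KO1 and 6.89 in KO2. It had its highest value in KO1, with a log2 ratio of 0.33. On the FPKM + 1 scale it was the only gene of the 57 at least 1.2-fold higher in KO1. The accessory gene NDUFA9, at 0.983, 1.31 and 0.819 FPKM, was 1.33-fold higher in KO1 by plain FPKM. With 1 added its log2 ratio there was 0.22, and it shares 67.9% of its coding bases. NDUFS3, a core subunit of the peripheral arm, was at 24.4, 23.0 and 17.5 FPKM, a log2 ratio of -0.46 in KO2. NDUFS8, with a pair of iron-sulphur clusters, was at 23.2, 19.96 and 18.7 FPKM. NDUFV1 (ENSG00000167792, chromosome 11), which binds NADH and FMN, was at 49.7, 41.8 and 40.9 FPKM. These last 3 genes were highest in the control, and in KO2 the log2 ratios were -0.29 for NDUFS8 and -0.28 for NDUFV1.

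The accessory subunits of the peripheral arm of complex I, which reaches into the matrix, lay on both sides of the control in KO1 and mostly below it in KO2. NDUFS4, a gene mutated in Leigh syndrome, was at 22.6 FPKM in the control library, 25.3 in KO1 and 18.3 in KO2. NDUFA12 was at 52.2, 44.6 and 52.9 FPKM, the only peripheral gene past the filter that was not below the control in KO2. NDUFA2 was at 11.9, 10.4 and 9.66 FPKM. Taken with the catalytic genes, 13 genes of the arm passed the filter, and their median log2 ratio was -0.08 in KO1 and -0.27 in KO2. Of the 13, 7 were at least 1.2-fold lower in KO2, against 18.0% of all genes and 25.0% of genes of at least 20 FPKM. NDUFA5 (4.07, 4.37 and 3.60 FPKM) and NDUFV3 (5.26, 4.93 and 5.19 FPKM) were expressed at a low level in all libraries and share no coding bases with other genes.

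The membrane arm of complex I, which holds the proton channels, was represented by 19 genes that passed, whose median log2 ratio was -0.07 in KO1 and -0.15 in KO2. At least 1.2-fold lower in KO2 were 8 of the 19, against 18.0% of all genes and 25.0% of genes of at least 20 FPKM. NDUFB7 was at 155 FPKM in the control library, 131 in KO1 and 118 in KO2, a log2 ratio of -0.40 in KO2. NDUFB10 was at 117, 109 and 96.6 FPKM. Both were highest in the control and lowest in KO2. NDUFB5 was at 9.71, 10.2 and 7.17 FPKM, and NDUFB6 at 22.1, 23.6 and 17.4 FPKM, so that these genes were lower in KO2 alone. NDUFA3 was at 28.5, 21.9 and 26.0 FPKM, and NDUFB11 at 54.4, 43.6 and 49.1 FPKM. These were lowest in KO1, at log2 ratios of -0.37 and -0.31, and NDUFB11 shares exons with RBM10 on the opposite strand.

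NDUFB3 was the only gene of the arm past the filter above the control in KO2, at 55.1 FPKM in the control library, 52.8 in KO1 and 60.2 in KO2. NDUFC2, with the largest difference, was at 2.31, 1.99 and 1.27 FPKM from 291, 188 and 161 reads. Without the added 1, its log2 ratio of FPKM in KO2 was -0.86, with a counting interval from -1.15 to -0.58. The -0.54 given above is on the FPKM + 1 scale. NDUFC2 shares 76.9% of its coding bases with other genes, so the value is uncertain. NDUFA4, named for complex I but known as a subunit of complex IV, was at 32.4, 33.6 and 27.3 FPKM. NDUFAB1, the mitochondrial acyl carrier protein, was at 43.9, 44.6 and 33.8 FPKM.

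All 4 genes of complex II were lowest in KO2, and the median log2 ratio was 0.12 in KO1 and -0.29 in KO2. SDHA (ENSG00000073578, chromosome 5), the flavoprotein that oxidises succinate, was at 28.2 FPKM in the control library, 32.0 in KO1 and 21.7 in KO2. The anchor gene SDHD was at 25.3, 27.4 and 20.3 FPKM. SDHA, SDHC and SDHD were highest in KO1, and only SDHB was below the control there. SDHA, SDHB and SDHD were at least 1.2-fold lower than the control in KO2, with log2 ratios of -0.36, -0.27 and -0.30, and that of SDHC was 0.00. The control value of SDHA lay between those of the KO libraries, whose mean was 26.8 ± 7.24 FPKM (SD, n = 2).

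All 9 genes of complex III were lowest in KO2, with a median log2 ratio of -0.01 in KO1 and -0.16 in KO2. CYC1 (ENSG00000179091, chromosome 8), cytochrome c1, was at 95.9 FPKM in the control library, 93.9 in KO1 and 69.4 in KO2. UQCRFS1, the Rieske iron-sulphur protein, was at 33.1, 36.3 and 29.4 FPKM. The core proteins UQCRC1 and UQCRC2 were at 72.0, 67.5 and 63.6 FPKM and at 40.2, 44.4 and 36.0 FPKM. CYC1 and UQCR10 were the only genes of this complex at least 1.2-fold lower in KO2, with log2 ratios of -0.46 and -0.47. UQCRQ was at 43.0, 42.8 and 38.4 FPKM, UQCRB at 15.7, 16.6 and 14.03 FPKM and UQCR11 at 6.57, 7.14 and 6.47 FPKM. All 168 coding bases of UQCR11 lie in exons of another gene, so its level is uncertain.

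In complex IV the median log2 ratio was 0.00 in KO1 and -0.20 in KO2, and all 10 genes were below the control in KO2. COX4I1, the subunit through which ATP inhibits the enzyme, was at 79.7 FPKM in the control library, 70.1 in KO1 and 73.2 in KO2. COX5A was at 81.1, 79.7 and 69.1 FPKM, and COX5B, which binds zinc, at 71.1, 71.5 and 61.8 FPKM. COX4I1 was the only gene of this complex with its lowest value in KO1. COX7C was at 94.4, 107 and 82.2 FPKM, COX7A2 at 56.4, 62.2 and 52.5 FPKM and COX6A1 at 34.3, 38.0 and 29.9 FPKM, each highest in KO1 and lowest in KO2. COX8A was at 74.1, 79.2 and 57.4 FPKM and had the lowest ratio in KO2, -0.36. COX7B was at 43.8, 41.9 and 41.6 FPKM, where the KO libraries hardly differed.

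Tissue-restricted versions of the same subunits were close to silent. COX4I2, a lung isoform, was at 0.0304 FPKM in DLD1 control cells, listed at 0 in KO1 and at 0.0605 FPKM in KO2. COX7A1, a heart and muscle isoform, was at 0.105, 0.140 and 0.104 FPKM, and NDUFA4L2 at 0.0751, 0.0901 and 0.127 FPKM. COX6A2, COX7B2 and COX8C were listed at 0 in every library, and COX6B2 stayed under 0.03 FPKM. Of 9 paralogous genes only UQCRHL (6.35, 6.22 and 6.80 FPKM), a near copy of UQCRH with which it may share reads, and COX7A2L (19.98, 19.98 and 17.5 FPKM), a factor of supercomplex assembly, passed the filter.

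Other genes of mitochondrial respiration were set beside these from lists. Over all genes, 51.6% were below the control in KO2 and 18.0% were at least 1.2-fold lower there. In both KO libraries 4.06% were at least 1.2-fold lower. Of 17 nuclear subunits of the ATP synthase, all 17 were below the control in KO2, with a median log2 ratio of -0.17, and 6 were at least 1.2-fold lower. ATP5MC2, which encodes the c subunit of the rotor, was at 33.7, 28.2 and 25.9 FPKM, and ATP5MD at 81.9, 90.3 and 74.7 FPKM. Of 76 mitochondrial ribosomal protein genes past the filter, 71 were below the control in KO2 (median -0.23), and 26 were at least 1.2-fold lower, 6 of them in both KO libraries. MRPL11 had the lowest mean ratio of these, at 42.9, 32.0 and 28.8 FPKM, and MRPL53 the highest, at 1.61, 2.51 and 1.92 FPKM. MRPS34 was at 184 FPKM in the control library, 147 in KO1 and 123 in KO2. Of 11 genes of cytochrome c and coenzyme Q synthesis, all 11 were below the control in KO2 (median -0.28), 6 of them at least 1.2-fold. COQ2, which joins the ring of coenzyme Q to its tail, was at 7.26, 6.22 and 3.75 FPKM, and PDSS2, which helps to make the tail, at 5.40, 7.79 and 4.29 FPKM. In KO1 these 3 lists had medians of -0.01, -0.06 and -0.04.

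Assembly factors had medians in KO2 of -0.19 for 18 genes of complex I, -0.35 for 4 of complex II, -0.23 for 6 of complex III and -0.19 for 22 of complex IV, and in KO1 of -0.04, 0.09, -0.01 and 0.07. Below the control in KO2 were 15, 3, 4 and 19 of them, and at least 1.2-fold lower 6, 3, 2 and 6. Over all genes the shares were 51.6% and 18.0%. ECSIT, a complex I assembly factor, was at 18.6 FPKM in the control library, 17.5 in KO1 and 12.2 in KO2. SDHAF3 was at 4.93, 5.11 and 2.46 FPKM, and UQCC2 at 11.1, 9.20 and 7.53 FPKM. NDUFAF7 was above the control in both KO libraries, at 10.4, 11.9 and 12.4 FPKM, as were SDHAF2 (2.78, 3.17 and 2.85 FPKM), UQCC1 (9.02, 9.43 and 9.25 FPKM) and COX10 (5.81, 6.501 and 6.16 FPKM). PET100, of complex IV assembly, was the only one of these factors at least 1.2-fold lower in both, at 1.65, 0.911 and 1.09 FPKM.

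The tricarboxylic acid cycle did not show the same median. Over its 14 enzymes outside complex II the median was 0.09 in KO1 and -0.01 in KO2, and 7 of the 14 were below the control in KO2. Isocitrate dehydrogenase IDH2 was at 43.7 FPKM in the control library, 34.9 in KO1 and 24.2 in KO2, whereas OGDH was at 21.3, 25.5 and 27.0 FPKM. Of 9 transcriptional regulators past the filter, 0 were at least 1.2-fold lower or higher in KO2, and the median was -0.03. NRF1, which binds promoters of many respiratory genes, was at 4.12, 5.05 and 4.02 FPKM, and TFAM, which acts on the mitochondrial genome, at 9.998, 9.40 and 9.91 FPKM. POLRMT, the mitochondrial RNA polymerase, was at 15.5, 12.4 and 16.2 FPKM, and GABPA, an ETS factor, at 4.45, 5.82 and 4.74 FPKM. PPARGC1A, a coactivator of respiratory genes, was at 0.0388, 0.158 and 0.00578 FPKM. The 11 mitochondrially encoded subunits of complexes I, III and IV summed to 58060 FPKM in the control library, 55172 in KO1 and 49519 in KO2, ratios of 0.950 and 0.853, beside 0.944 and 0.858 for the sum of the 61 nuclear genes and 0.958 and 0.952 for the sum over the whole table. They did not move alike, since MT-CO3 was at 9372, 8850 and 6394 FPKM and MT-ND5 at 1363, 1880 and 2003 FPKM.

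**Figure D4:**
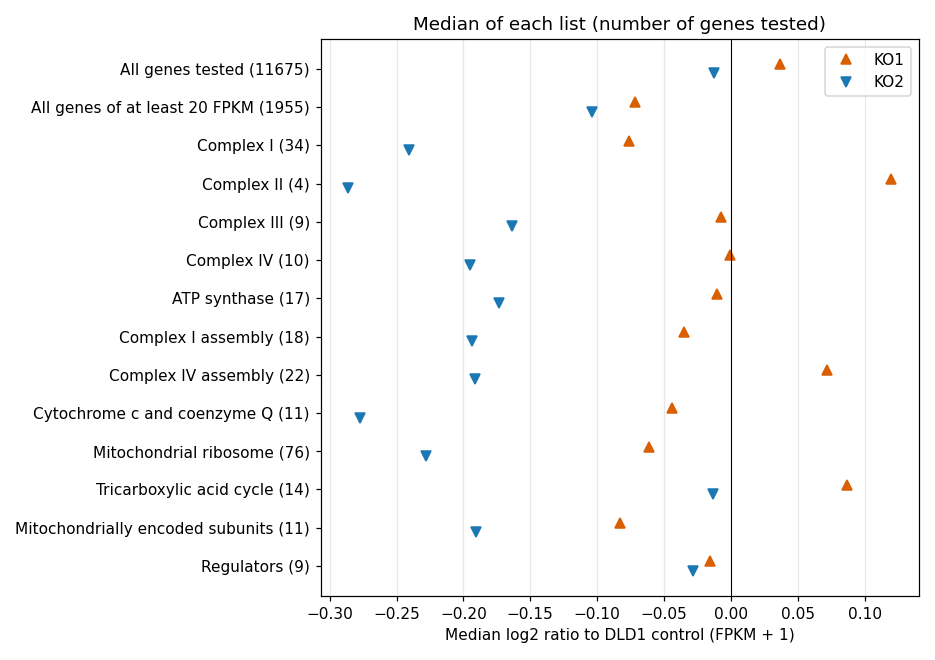
Median log2 ratio to DLD1 control (FPKM + 1 scale) of each list in KO1 (upward triangle) and KO2 (downward triangle), with the number of genes past the filter in brackets. In KO2 the 4 complexes lie between -0.29 and -0.16, left of all genes of at least 20 FPKM at -0.10, while the tricarboxylic acid cycle and the regulators lie near 0.

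Since many of the genes were lower together in KO2, their promoters were searched for the sites of factors known to act on respiratory genes. RefSeq promoter windows of 300 bases (250 before and 50 after the start, GRCh38.p14) were matched for 51 of the 61 genes. The letters searched on both strands were GCATGCGC for NRF1, AAGATGGC for YY1 and CCGGAAGT for ETS factors such as GABPA, and none of the 3 shares its letters with another, although the NRF1 letters and their reverse complement overlap each other in GCGCATGCGC. The NRF1 letters were found in 9 of 51 windows (17.6%), against 5.997% of the 8287 windows of genes that passed the filter and 3.27% of all 27305 windows. The YY1 letters were in 8 (15.7%), against 6.01% and 3.03%, and the ETS letters in 8 (15.7%), against 9.92% and 4.44%. The 51 windows include those of the 4 genes that did not pass the filter, so the sets are not alike. Among the respiratory genes past the filter, 8 had the NRF1 letters and 39 lacked them. For the YY1 letters the counts were 6 and 41, and for the ETS letters 7 and 40. The NRF1 letters were in 0 of 7 windows of complex III, 5 of 32 of complex I, 2 of 3 of complex II and 2 of 9 of complex IV.

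The first NRF1 match of each of the 9 windows is shown with 10 bases on either side, read on the strand of the gene, with the matching letters in capitals, because this is the stretch these promoters share. In NDUFA8, NDUFB4 and SDHD a second match overlaps the first.
NDUFA6, chr22:42090921-42090948, minus strand: ctgtagatgaGCATGCGCagcacccacc
NDUFA8, chr9:122159766-122159793, minus strand: gttgccggatGCGCATGCgcaggcgccg
NDUFB4, chr3:120596167-120596194, plus strand: agagcacttcGCGCATGCgcatatcacc
NDUFS6, chr5:1801351-1801378, plus strand: cagaagccgtGCGCATGCgttagcgcta
NDUFS7, chr19:1383824-1383851, plus strand: tccggtttccGCATGCGCtccgagccgc
SDHB, chr1:17054215-17054242, minus strand: agccaaatggGCATGCGCcgctactgcg
SDHD, chr11:112086753-112086780, plus strand: agctgtgtttGCGCATGCgcgacgggtg
COX5B, chr2:97645916-97645943, plus strand: gcagagctggGCATGCGCaatttccgcc
COX6A1, chr12:120437885-120437912, plus strand: gagggcacacGCATGCGCacgaaggaaa

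Of the 8 genes with the NRF1 letters that passed the filter, the median log2 ratio was -0.03 in KO1 and -0.27 in KO2. Of the 39 without them it was -0.07 and -0.18. For the YY1 letters the median in KO2 was -0.23 over 6 genes with them and -0.20 over 41 without. For the ETS letters it was -0.20 over 7 genes with them and -0.21 over 40 without. NDUFA8, whose NRF1 match begins 4 bases before the start and runs across it, had a log2 ratio of -0.10 in KO2. NDUFS6, whose NRF1 match begins 46 bases before the start, had -0.33. A match of letters is a description and does not show that a factor was bound in these cells. The 3 genes lower in both KO libraries are shown over the 100 bases before the start, with NRF1 letters in capitals, because they were the genes that met the rule in both.
NDUFA6, chr22:42090773-42090872, minus strand: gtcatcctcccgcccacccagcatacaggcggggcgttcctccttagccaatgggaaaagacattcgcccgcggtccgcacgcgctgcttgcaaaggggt
NDUFS6, chr5:1801307-1801406, plus strand: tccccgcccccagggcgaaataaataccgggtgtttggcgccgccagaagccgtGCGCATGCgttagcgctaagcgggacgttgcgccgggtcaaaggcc
UQCR10, chr22:29767269-29767368, plus strand: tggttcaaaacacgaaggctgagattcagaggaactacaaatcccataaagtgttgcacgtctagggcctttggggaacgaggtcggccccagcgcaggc

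Only NDUFS6 held NRF1 letters in this stretch, the match of NDUFA6 lying further upstream, and the UQCR10 stretch held none of the letters searched.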

How the data were processed

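The 3 libraries were TruSeq RNA libraries from TRIzol-extracted RNA, read on an Illumina HiSeq. The authors deposited 1 table of FPKM values for 60504 Ensembl identifiers. The submitters' processing notes name Trim Galore 0.3.7, STAR 2.5, Cufflinks 2.2.1, DESeq 1.22.1 and the build hg19, without roles, and the annotation is not given in the sources used here. Symbols, gene types, exon lengths and exon overlaps came from GENCODE release 29 on GRCh38 by identifier, which names 56996 of the rows and lacks 3508. Promoters were RefSeq windows on GRCh38.p14.

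A gene passed the filter where the control value and the KO mean averaged 1 FPKM or more, and 1 was added to FPKM before log2. By rule all genes could be named, 1 gene is not reported here by itself, and values were given for the catalytic subunits, the extremes of level in each complex, the extremes of mean ratio in each complex and list, and every respiratory complex gene past 1.2-fold in both KO libraries; other genes were picked after their values were seen. The members, lists, thresholds and promoter motifs were chosen with earlier results of these data known, and the split at 20 FPKM and that at 30% of shared coding bases were chosen after the values were seen, as was TPM scaling of the genes that passed the FPKM filter. Depth was found as the number of reads at which low FPKM values of genes with a single transcript came out whole within 0.02 (98.7% to 98.9% of them). The alternatives were pseudocounts of 0.1 and 0, median-ratio and TPM scaling, no filter, a filter at 5 FPKM, a threshold of 1.5-fold and each KO library alone. The fold rule was run on simulated data with counting error alone, which does not test the spread between cultures. Scripts ran in Python 3.11.15 with matplotlib 3.10.9, scipy 1.17.1, pandas 2.3.3 and numpy 2.4.6.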

Additional observations from a re-analysis of the deposited data

How the results depend on the processing

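No paired analysis was possible because there was 1 control library and no number that the groups share by design. The median log2 ratio of the respiratory genes in KO2 lay between -0.20 and -0.13 under all alternatives tried, and 0 genes were 2-fold changed in both KO libraries under any. The 1.5-fold threshold was tried on the reported setting alone and also gave 0. In KO1 the direction depended on TPM scaling, which turned the median of all genes of complexes I to IV to 0.028, that of complex III to 0.053 and that of complex IV to 0.060, while that of all genes tested became 0.09. With its filter of 1 TPM this let in all 61 genes and 15841 in all. On the same 57 and 11675 genes as reported, TPM scaling gave the same 0.028, 0.053 and 0.060, with 0.10 over all genes, and in KO2 -0.13 against 0.05. TPM scaling also left, under either filter, 0 genes at least 1.2-fold lower in both KO libraries. Without either KO library, the count of genes at least 1.2-fold lower was 5 to 23 and that of genes at least 1.2-fold higher was 0 to 1. The last 2 counts follow from a rule that needs 1 library in place of both. TPM scaling divides each library by its FPKM sum, which was 0.958 of the control sum in KO1 and 0.952 in KO2. The cause of the difference in these sums was not tested. The other 122 values under alternatives kept their direction and moved by less than the spread between the KO libraries or by less than 1.5 times. With 1 control library, no alternative tests the spread between control cultures.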

Other observations

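By position, the 6 genes past the filter on chromosome 11 (NDUFC2, NDUFS3, NDUFS8, NDUFV1, SDHD and COX8A) all had log2 ratios in KO2 between -0.54 and -0.28, with a median of -0.33, while the median of all 671 genes tested on that chromosome was 0.00. On chromosome 5 the median of 6 respiratory genes in KO2 was -0.28, against 0.01 over 505 genes. On chromosome 19, also with 6 respiratory genes, it was -0.22, against -0.05 over 747 genes. On the X chromosome the 3 genes NDUFA1, NDUFB11 and COX7B had a median of -0.08, against 0.01 over 365 genes. These chromosomes were chosen with their values in view.

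Pseudogenes named after these genes were searched in the table. There were 115 of them for 34 of the 61 genes, of which 33 had a value above 0 and 7 reached 1 FPKM in some library. SDHAP3 was at 4.96 FPKM in the control library, 4.57 in KO1 and 3.09 in KO2, and SDHAP1 at 3.93, 3.85 and 3.46 FPKM. NDUFV2P1 was at 1.81, 2.32 and 2.15 FPKM, above NDUFV2 itself in every library. Levels of SDHA and NDUFV2 are uncertain beside such near-identical copies.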
